A study of Mus musculus with 6 samples.

Results

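S100a4 Ccr2 effector Treg cells (members) were 686 of 10162 kept spleen Treg cells, chosen for messages of S100a4, Ccr2, Il1rl1, Gna15 and Itgb1. They were chosen in the unnormalised table of unique molecular identifiers (UMIs, each of which stands for 1 captured RNA molecule), which held 10685 cells. A cell needed at least 200 genes, under 10% of UMIs from mitochondrial (mt-) genes, no UMI of the B cell gene Cd79a, of the myeloid gene Lyz2 or of the chemokine gene Ccl5, at least 1 UMI of S100a4, and at least 3 UMIs over the 5 marker genes. The other 9476 cells with the same limits on genes, mitochondrial UMIs, Cd79a and Lyz2 were the comparison cells.

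The mice were C57BL/6, 18 to 21 weeks old and given tamoxifen, and their splenic Treg cells were sorted by EGFP. The study made droplet-based 3′ single-cell libraries from 6 samples. In 3 samples the mice were Bach2fl/fl Foxp3EGFP-Cre-ERT2 (cKO), in which loxP sites flank part of Bach2, and in 3 they were Bach2+/+ Foxp3EGFP-Cre-ERT2 (WT). Both groups carried the same tamoxifen-inducible Cre with an EGFP reporter at the Foxp3 locus, so recombination was directed to cells that express Foxp3. The cells fell into 6 sets by the suffix of their barcode, but which sample a set holds was not given. The genotypes were therefore not compared and the sets were not treated as replicates of a group. Levels are given in CPM, the UMIs of a gene per 1000000 UMIs, as the lowest, the highest and the median set. Intervals are 95% and cover counting error only. No p-value was computed, since cells of 1 library are not replicates.

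Effector Treg cells are Treg cells that have responded to antigen and taken up homing receptors of inflamed or barrier tissue. S100a4 encodes a small calcium-binding protein that acts on myosin and cell motility, Ccr2 the receptor for monocyte-attracting chemokines, Itgb1 the integrin beta-1 chain, Il1rl1 the interleukin-33 receptor ST2 and Gna15 a G protein alpha subunit of the Gq class. BACH2 is a repressor that binds the same DNA sites as AP-1 factors and is known to hold Treg cells in a resting state.

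The choice rested mostly on S100a4 and Itgb1. S100a4 was present in all members by the rule, at 1474 CPM against 71.4 in comparison cells. Itgb1 had a UMI in 75.1% of members, Ccr2 in 30.6%, Gna15 in 25.4% and Il1rl1 in 17.1%, and 72 members had none of the last 4 genes. These values chose the cells and are given only as a description. The marker sum had a median of 5 and reached 38 UMIs. Just inside the limit, 152 members had a sum of 3, and just outside it 205 cells with S100a4 and no Ccl5 had a sum of 2. Inside and outside, S100a4 stood at 1.70 and 1.28 UMIs per cell, Itgb1 was seen in 65.1% and 49.8% of cells and the median depth was 1919 and 1985 UMIs.

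Members made up 6.75% of kept cells (exact Clopper-Pearson interval 6.27 to 7.26%). The share in sets 1 to 6 was 5.99%, 6.32%, 4.44%, 8.87%, 7.05% and 8.12%, from 106, 108, 79, 148, 118 and 127 cells. It was lowest in set 3 (3.53 to 5.51%) and highest in set 4 (7.55 to 10.3%), and the intervals of these sets did not overlap. The genotype of either set was not given, so nothing is read from this spread.

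**Figure D1:**
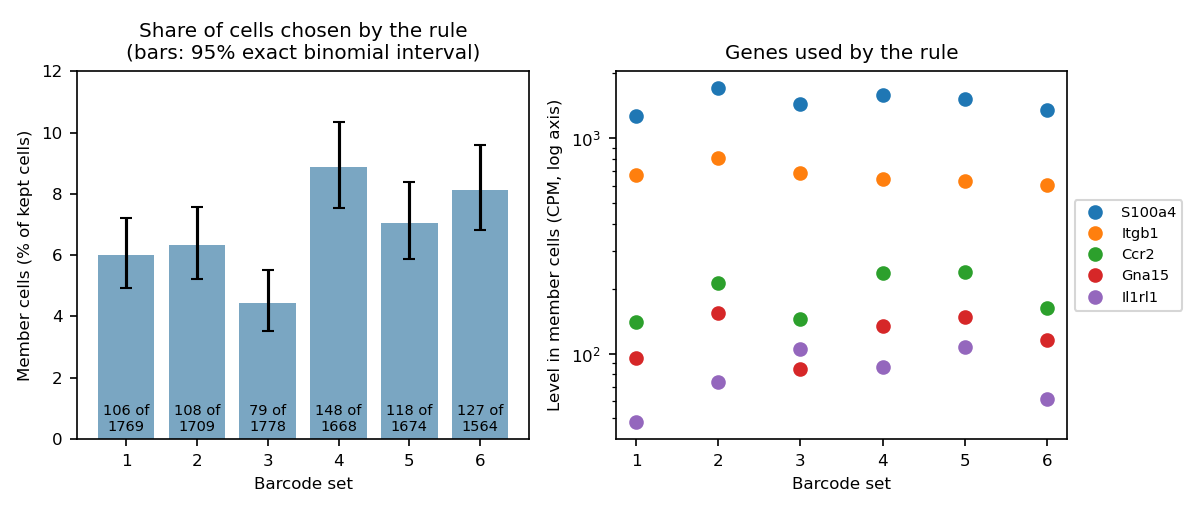
Left, members as a percentage of kept cells in each of the 6 barcode sets, with 95% exact binomial intervals and the counts in the bars. Right, the level of the 5 marker genes in members of each set, in CPM on a log axis. The share ran from 4.44% in set 3 to 8.87% in set 4, and S100a4 was the highest of the 5 genes in each set.

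The label Treg was checked against 5 Treg genes. Their summed level lay between 1597 and 2009 CPM in members and between 1540 and 2019 CPM in comparison cells, so the ranges overlapped. Of the 3322 UMIs of this sum in members, 2000 were Ikzf2 and 1015 Tnfrsf18. Ctla4 had 170, Il2ra 110 and Foxp3 27, so the sum says little about these 3 genes. With each cell thinned to 1000 UMIs, Ikzf2 (Helios, a Treg transcription factor) had a UMI in 65.2% (61.4 to 68.7%) of members, in 59.3% (58.3 to 60.3%) of comparison cells and in 22.9% (14.4 to 33.4%) of 83 B cells of the same table. Without thinning, a UMI was seen in 85.9%, 78.2% and 34.5% of these cells, whose depths had medians of 2155, 2077 and 1975.5 UMIs. Il2ra was seen in 6.30% (4.59 to 8.39%) of thinned members, 9.35% (8.76 to 9.96%) of comparison cells and 3.61% (0.752 to 10.2%) of B cells, or without thinning in 13.3%, 19.4% and 10.7%. Ctla4 was seen in 6.74% (4.97 to 8.88%), 8.97% (8.39 to 9.57%) and 2.41% (0.293 to 8.43%), or without thinning in 19.5%, 18.5% and 5.95%. Il2ra was lower in members than in comparison cells either way, Ctla4 had a lower share only in thinned cells, and the intervals of both in members and B cells overlapped. Tnfrsf18 was seen in 44.1% (40.3 to 47.9%), 39.8% (38.8 to 40.8%) and 14.5% (7.70 to 23.9%) of thinned cells, and without thinning in 70.0%, 62.6% and 32.1%. Foxp3, the factor that defines Treg cells, was seen in 1.90% (1.02 to 3.23%) of thinned members and in 2.23% (1.94 to 2.56%) of comparison cells. In B cells it was seen in 0 of 83 (0 to 4.35%), so at this depth the Foxp3 share in members was not separated from that in B cells.

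Markers of other cell types were summed by list, and are given as the lowest and highest set. Cd8a, Gzmk, Lyz1, Spi1, Csf3r, Ebf1, Calca and Il21 had 0 UMIs in members. In comparison cells, whose UMI total was far larger, they had 7, 5, 0, 21, 5, 12, 6 and 8 UMIs. The zeros therefore do not set members apart from comparison cells. The B cell list was at 290.1 to 459 CPM in members and 278 to 383 in comparison cells, and the myeloid list at 149.7 to 309 against 141 to 245, of which 336 of 405 UMIs in members were Cst3. The cytotoxic list was at 44.1 to 212 against 80.0 to 127 CPM, the effector helper list at 34.2 to 98.2 against 57.1 to 91.0, and the follicular list at 215 to 315 against 314 to 420. The natural killer T and gamma-delta T list, of which only 2 of 8 genes were in the table, was at 14.7 to 58.2 against 34.6 to 40.7 CPM. Globin and other erythroid genes were at 0 to 311 against 5.98 to 3986 CPM. The list for Th17-like cells was higher in members, 44.2 to 139.7 against 13.7 to 25.3 CPM, and so was the list for type 2 innate lymphoid cells, 34.2 to 59.9 against 13.6 to 21.7 CPM, of whose UMIs in members 59 of 82 were Il9r. Tmem176b, a membrane protein gene of the first of these lists, was called higher in members (2.14, 1.37 to 3.22), with UMIs in 33 members. The part of these cells in the results was not tested.

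Depth differed little between the groups. Members had a median of 2155 UMIs and 1003 genes per cell and comparison cells 2077 UMIs and 910.5 genes, and after thinning to 1000 UMIs the medians were 575 and 539 genes, higher in members of 6 of 6 sets. The count table held 25389602 UMIs, of which 1833102 were in members and 22087713 in comparison cells. Of the barcodes, 63 occurred in more than 1 set, 4 members carried such a barcode and no barcode held members in 2 sets. Ribosomal protein genes made up 28.2 to 33.0% of UMIs in members and 33.3 to 39.6% in comparison cells, and in each set the share was lower in members. Across the 7393 genes measured (at least 200 UMIs over kept cells, without the 8 genes of the rule), the median gene was 0.15 higher in members on the log2 scale.

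For each gene the log2 ratio of members over comparison cells was taken within each set, with 0.5 UMIs added to both counts, and is given as the median of the 6 sets with the lowest and highest set in parentheses. A call needed a median of at least 1.5-fold in either direction and the same sign in 6 of 6 sets. Of the 7393 genes, 388 (5.25%) were called higher and 101 (1.37%) lower in members. Measured against the median gene, the counts were 220 (2.98%) and 193 (2.61%), so the balance of higher and lower calls depended on the scaling. These calls describe cells chosen by expression and are not tests.

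Genes of the S100, galectin and annexin families and of the cytoskeleton were higher in members. Of 25 measured genes of this kind, 18 were called higher and 0 lower, against backgrounds of 5.25% and 1.37%, and the list's median ratio was 1.08 against 0.15 for all genes. The list was written with earlier results of these data known and holds relatives of S100a4, which the rule requires. The count is therefore a description and not a test. Measured against the median gene, 15 of 25 were higher. S100a6 (calcyclin), a calcium-binding relative of S100a4, lay at 1023 to 1528 CPM (median 1298) in members and 117 to 315 CPM (median 196) in comparison cells, a log2 ratio of 2.62 (2.16 to 3.70). The lowest set of members stood above the highest set of comparison cells. S100a10, the partner of annexin A2, was at 2109 to 3352 CPM (median 2626.5) against 723 to 1205 CPM (median 938), a log2 ratio of 1.42 (1.16 to 1.82). S100a11 had a ratio of 1.33 (1.13 to 2.03) and S100a13 of 0.75 (0.41 to 1.03). S100a4 itself and these 4 relatives all lie on chromosome 3 (mm10; S100a4 at 90603771 to 90606045, S100a6 at 90612882 to 90624181, S100a13 at 90514435 to 90524581, S100a11 at 93520488 to 93526287 and S100a10 at 93555080 to 93564643, all on the plus strand).

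The promoters of 4 of these genes are shown because the genes were high together and BACH2 and AP-1 factors compete for a site shown in capitals. The site reads TGACTCA on one strand and TGAGTCA on the other, and both were searched. Each runs from 250 bases before to 50 bases after a RefSeq transcript start (GRCm38.p6, which is mm10), 5′ to 3′ on the gene's strand.
S100a6, chr3:90612644-90612943, plus strand: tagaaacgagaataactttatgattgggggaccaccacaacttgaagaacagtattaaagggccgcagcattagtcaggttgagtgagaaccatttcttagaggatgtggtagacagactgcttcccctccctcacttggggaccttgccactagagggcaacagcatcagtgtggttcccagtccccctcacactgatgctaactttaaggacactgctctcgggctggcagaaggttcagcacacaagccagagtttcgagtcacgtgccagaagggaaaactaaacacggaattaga
S100a11, chr3:93520246-93520545, plus strand: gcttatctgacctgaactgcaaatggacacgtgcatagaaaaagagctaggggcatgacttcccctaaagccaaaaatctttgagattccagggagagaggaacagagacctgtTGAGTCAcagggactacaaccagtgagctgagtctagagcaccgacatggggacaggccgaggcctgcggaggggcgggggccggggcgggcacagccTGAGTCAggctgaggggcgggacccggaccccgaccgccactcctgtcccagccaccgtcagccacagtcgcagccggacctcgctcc
Anxa2, chr9:69453433-69453732, plus strand: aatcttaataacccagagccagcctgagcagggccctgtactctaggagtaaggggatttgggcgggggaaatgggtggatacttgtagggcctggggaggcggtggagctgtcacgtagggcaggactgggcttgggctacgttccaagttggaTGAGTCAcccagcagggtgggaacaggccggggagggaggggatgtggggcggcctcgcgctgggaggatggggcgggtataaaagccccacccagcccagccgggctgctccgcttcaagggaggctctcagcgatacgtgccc
Lgals3, chr14:47373610-47373909, plus strand: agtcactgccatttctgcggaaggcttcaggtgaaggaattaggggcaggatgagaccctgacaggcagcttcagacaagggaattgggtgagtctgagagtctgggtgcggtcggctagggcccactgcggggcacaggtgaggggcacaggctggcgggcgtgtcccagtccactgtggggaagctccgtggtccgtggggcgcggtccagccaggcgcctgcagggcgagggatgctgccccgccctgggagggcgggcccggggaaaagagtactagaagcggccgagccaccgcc
The S100a11 promoter held 2 sites, which began 136 and 38 bases before the start, and the Anxa2 promoter 1, which began 95 bases before it, while those of S100a6 and Lgals3 held none in this window. These 4 were picked to show promoters with and without it: of the 18 called genes of the list, 14 matched the table and 3 of these (21.4%) held the site, the third being Lmna. The site was in 5.20% of the 32851 promoters in the RefSeq table. Of the 388 genes called higher, 292 matched the table by symbol and 16 of these (5.48%) had it in a promoter, and of the 101 called lower 77 matched and 5 (6.49%) had it, against 230 of 5703 matched measured genes (4.03%). For genes called against the median gene the order of the shares was the other way, 6.79% of the higher and 4.61% of the lower, so it depended on the scaling. A match describes letters and does not show binding.

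Of 3 measured galectin genes, which encode sugar-binding proteins, Lgals1 and Lgals3 were higher and Lgals9 (0.19) was not called. Lgals1 was at 1591 to 2453 CPM (median 1831) in members and 328 to 533 CPM (median 416) in comparison cells, a log2 ratio of 2.19 (1.74 to 2.90). In thinned cells it had a UMI in 65.4% (61.7 to 69.0%) of members, 25.3% (24.4 to 26.2%) of comparison cells and 7.23% (2.70 to 15.1%) of B cells, with unthinned shares of 84.5%, 43.0% and 19.0%. Lgals3 was at 44.9 to 157 CPM (median 147) against 8.23 to 21.7 CPM (median 13.7), a ratio of 3.16 (2.5 to 3.46), and its level in members was lowest in set 3. For both, the sets of members lay above the sets of comparison cells.

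Genes of the cell cortex and of filaments were higher as well. Crip1, which encodes a small LIM-domain protein, was at 3164 to 4747 CPM (median 3983) in members and 1012 to 1329 CPM (median 1101) in comparison cells, with ratios in a narrow span of 1.82 (1.64 to 1.96). Vim, the filament protein vimentin, had a ratio of 1.32 (0.94 to 1.78), Anxa2 (annexin A2) of 1.84 (1.62 to 2.78), Ahnak of 1.16 (0.99 to 1.89), Tagln2 (transgelin-2) of 1.26 (0.94 to 1.73) and Myo1f, an unconventional myosin, of 1.71 (1.42 to 2.05). Lmna, the gene of lamin A and C in the nuclear envelope, was at 24.2 to 56.5 CPM (median 32.1) against 4.63 to 11 CPM (median 6.90), a ratio of 2.57 (1.65 to 3.19). The other 5 called genes of the list were Emp3 (0.93), Plp2 (0.91), Capg (0.70), Flna (0.69) and Anxa6 (0.67). Genes of this list that were not called included Actb (0.24) and Tmsb4x (0.56).

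**Figure D2:**
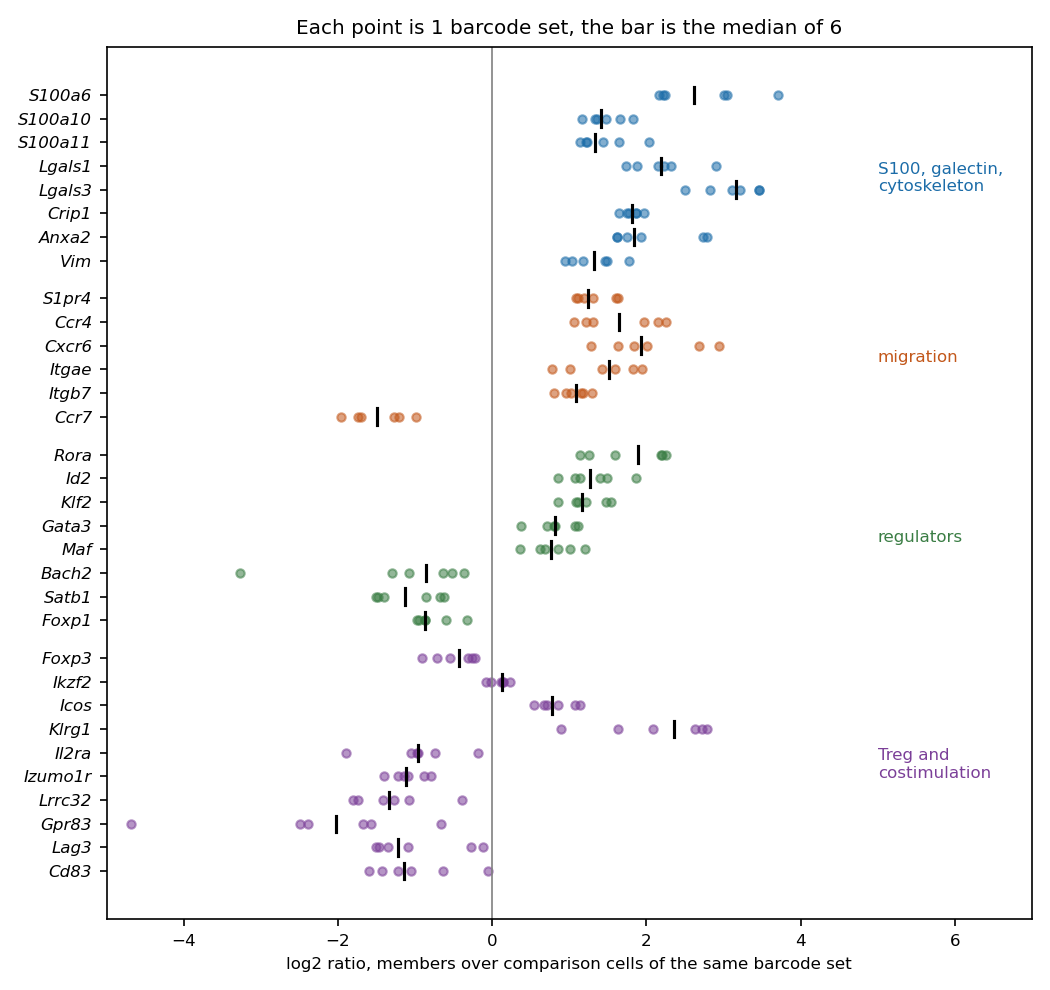
log2 ratio of members over comparison cells of the same barcode set (x axis) for 32 genes in 4 groups. Each point is 1 of the 6 barcode sets and the black bar is their median. S100a6, Lgals1, Lgals3 and Crip1 lay above 1 in each set, Ccr7, Izumo1r and Bach2 below 0 in each set, and Ikzf2 on both sides of 0.

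Receptors of migration were called in both directions. Among 12 measured chemokine and homing receptors, 3 were called higher and 1 lower, beside 5.25% and 1.37% of all genes. Cxcr6, a receptor for a chemokine of liver, lung and inflamed tissue, was at 25 to 89.8 CPM (median 65.6) in members against 6.69 to 29.3 CPM (median 15.6), a ratio of 1.93 (1.28 to 2.94), and the ranges of the groups overlapped. Ccr4, a receptor for homing to skin and inflamed sites, had a ratio of 1.64 (1.06 to 2.25). S1pr4, a receptor for sphingosine 1-phosphate, was at 243 to 353 CPM (median 300.0) against 107 to 134 CPM (median 116), a ratio of 1.24 (1.08 to 1.64). Ccr7, which takes T cells into lymph nodes and the white pulp, was lower, at 31.1 to 79.8 CPM (median 52.7) against 127 to 164 CPM (median 149), a ratio of -1.49 (-1.96 to -0.98). Its groups did not overlap. S1pr1, the receptor for exit from lymphoid organs, was higher in 6 of 6 sets with a ratio of 0.58 (0.53 to 0.99) that fell short of 1.5-fold.

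Of 18 measured integrin and adhesion genes, 3 were called higher and 1 lower (16.7% and 5.56%, beside 5.25% and 1.37% of all genes), and the list median of 0.14 was near that of all genes. Itgae, the integrin alpha-E (CD103) that binds E-cadherin on epithelium, was at 39.9 to 83.5 CPM (median 55) against 14.9 to 35.2 CPM (median 21.0), a ratio of 1.51 (0.77 to 1.94). Its beta chain partner Itgb7 was at 567 to 827 CPM (median 719) against 299 to 419.9 CPM (median 322), a ratio of 1.08 (0.80 to 1.30). Both were above their comparison cells in each set. Selplg, the ligand of the selectins, had a ratio of 0.75 (0.54 to 0.99). Cd9 was called lower (-0.62, -1.10 to -0.41), and Cd44, at 0.83 (-0.16 to 1.10), was not called.

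Rora, Id2, Gata3, Maf and Klf2 were among the transcription factors higher in members. Of 23 measured lineage factors, 9 were called higher and 3 lower (7 and 4 against the median gene), beside 5.25% and 1.37% of all genes. The list's median ratio was 0.13, against 0.15 for all genes. Rora, an orphan nuclear receptor of type 2 and tissue lymphocytes, was at 104 to 165 CPM (median 128) against 26.5 to 51.6 CPM (median 40.3), a ratio of 1.89 (1.14 to 2.25). Id2, an inhibitor of E proteins, had a ratio of 1.26 (0.85 to 1.86), Runx3 of 0.93 (0.56 to 1.75), Gata3, the type 2 factor, of 0.81 (0.38 to 1.11) and Maf of 0.77 (0.36 to 1.20). Klf2, which drives S1pr1 and is known from quiescent, recirculating T cells, was at 859 to 1346.5 CPM (median 1091) in members and 433 to 502 CPM (median 475) in comparison cells. Its ratio was 1.16 (0.85 to 1.54) and the groups did not overlap. The other factors called higher were Klf6 (0.75), Ahr (0.65) and Ikzf3 (0.64), of which Ahr and Ikzf3 did not pass against the median gene.

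Bach2 RNA was lower in members. It stood at 14.7 CPM (9.71 to 21.4) in members, from 27 UMIs, and at 29.2 CPM (27.0 to 31.6) in comparison cells. Over the sets members lay at 0 to 21.5 CPM (median 15.5) and comparison cells at 18.5 to 38.6 CPM (median 29.3), and the ranges overlapped. The ratio was -0.86 (-3.27 to -0.37), lower in 6 of 6 sets, and set 3 had 0 Bach2 UMIs among 200377, which allows 3 UMIs. The call was not kept when every cell was thinned to 1000 UMIs (-0.82) or when members were chosen on thinned counts (-0.72). Both genotypes are mixed here, and a 3′ tag can come from a deleted allele. Satb1, a chromatin organiser of resting T cells, gave -1.13 (-1.51 to -0.62) and Foxp1, a quiescence factor, -0.87 (-0.98 to -0.33).

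Bcl2, Igfbp4 and other resting genes were lower, and Klf2 and Il7r higher. Of 29 measured resting and quiescence genes, 10 were called lower and 4 higher (13 and 2 against the median gene), beside 1.37% and 5.25% of all genes. The list median was -0.48. Bcl2, the survival factor, was at 113 to 140.4 CPM (median 136) in members against 316 to 444 CPM (median 392), a ratio of -1.60 (-1.69 to -1.18), with no overlap. Igfbp4, a binding protein of insulin-like growth factors, gave -1.83 (-2.72 to -1.24), and Actn1, Il6st and Treml2 gave -1.06, -1.08 and -1.36. Gata1 rested on 7 UMIs in members, with a ratio of -1.68 (-3.03 to -0.71). The 4 higher genes were Klf2, the interleukin-7 receptor gene Il7r (0.94, 0.54 to 1.24), the cell cycle inhibitor gene Cdkn1b (0.69, 0.17 to 0.79) and the glucocorticoid-induced Tsc22d3 (0.65, 0.27 to 0.86). Il7r was at 241 to 329 CPM (median 278) in members and 124 to 181 CPM (median 158) in comparison cells, without overlap. Tcf7 (-0.27, -1.08 to 0.16) and Lef1 (0.04, -0.81 to 0.36), factors of naive T cells, were not called.

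Izumo1r, Gpr83 and Il2ra were lower among the Treg identity genes. Of 22 measured, 5 were called lower and 2 higher (6 and 0 against the median gene), beside 1.37% and 5.25% of all genes. Izumo1r, the folate receptor family gene FR4, was at 425 to 719 CPM (median 568) in members and 1095 to 1265 CPM (median 1222.5) in comparison cells, a ratio of -1.12 (-1.40 to -0.79), and the groups did not overlap. Gpr83, an orphan receptor of resting and thymic Treg cells, was at 0 to 25 CPM (median 10.8) against 43.5 to 51.9 CPM (median 47.9), a ratio of -2.03 (-4.69 to -0.67), from 21 UMIs in members. Lrrc32, which encodes GARP, gave -1.34 (-1.81 to -0.40), Il2ra, the interleukin-2 receptor alpha chain, -0.97 (-1.90 to -0.18) and Entpd1, which encodes CD39, -0.63 (-2.62 to 0.00) from 18 UMIs. Nrp1 (0.67, 0.41 to 0.78) and Capg (0.70, 0.51 to 0.73) were higher. Foxp3 was lower in 6 of 6 sets but at -0.43 (-0.90 to -0.23) was not called, and Ikzf2 (0.13, -0.08 to 0.23), Tnfrsf18 (0.00, -0.27 to 0.32) and Ctla4 (-0.17, -0.71 to 0.32) were not called either.

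Lag3 and Cd200 were lower in members, and Icos and Klrg1 higher. Of 18 measured inhibitory receptors and suppressive molecules, 4 were called lower and 1 higher, beside 1.37% and 5.25% of all genes. The share called higher, 5.56%, was near that of all genes. When cells with Cd8a or Hbb-bs UMIs and the deepest 2% were left out, 2 were lower. Lag3, an inhibitory receptor, was at 11 to 47.9 CPM (median 16.7) against 35.3 to 60.2 CPM (median 46.9), a ratio of -1.22 (-1.50 to -0.12), and Cd200 had a ratio of -1.12 (-1.25 to -0.66). Icos, a costimulatory receptor of effector Treg cells, was higher with a ratio of 0.78 (0.54 to 1.14). Klrg1, an inhibitory lectin-like receptor of terminally differentiated effector cells, was at 66.3 to 125 CPM (median 107) in members and 12.3 to 36.4 CPM (median 23.9) in comparison cells, a ratio of 2.36 (0.89 to 2.78). In thinned cells Klrg1 had a UMI in 8.64% (6.64 to 11%) of members, 2.13% (1.84 to 2.44%) of comparison cells and 0 of 83 B cells (0 to 4.35%). The unthinned shares were 15%, 3.81% and 0%.

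Among genes induced by T cell receptor signals, Cd83 and Lta were lower in members and none was called higher. Of 18 measured, 2 were lower and 0 higher (5 and 0 against the median gene), beside 1.37% and 5.25% of all genes. The list median was -0.25. Cd83, a surface protein of activated lymphocytes, was at 29.4 to 120.3 CPM (median 48.9) against 92.7 to 131 CPM (median 96.8), a ratio of -1.14 (-1.59 to -0.05), and its level in members was highest in set 6. Lta, which encodes lymphotoxin alpha, had a ratio of -1.06 (-1.86 to -0.58). Egr2 (-1.12, -3.28 to 0.56) and Nr4a1 (-0.48, -1.54 to 0.07) were not called. Of 27 measured G protein signalling genes, 3 were lower and 3 higher (11.1% each, beside 1.37% and 5.25% of all genes). The lower were the regulators Rgs1 (-0.89, -1.39 to -0.69) and Rgs10 (-0.77, -1.07 to -0.49) and the receptor subunit Ramp1 (-0.59), and the higher Gnb2 (0.63), Gna11 (0.63) and Prex1 (0.60). None of the higher genes passed against the median gene.

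Of the interleukin-33 and tissue repair genes, 3 of 13 measured were called higher and 0 lower, beside 5.25% and 1.37% of all genes, and the list median of 0.16 was near that of all genes, 0.15. The called genes were Klrg1, Gata3 and the interleukin-18 receptor gene Il18r1, which was at 71.9 to 162 CPM (median 127) against 41.2 to 75.7 CPM (median 60.0), a ratio of 0.98 (0.78 to 1.78). Areg, which encodes the repair factor amphiregulin, was at 9.82 CPM (5.82 to 15.5) in members and 9.28 CPM (8.05 to 10.6) in comparison cells, a ratio of 0.24 (-0.22 to 1.18), and was not called. Il1r2, a decoy receptor for interleukin-1, was at 0 to 137 CPM (median 23.4) in members and gave -1.46 (-4.86 to 1.0). Il1rl1 belonged to the rule and is left out.

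Cell cycle genes were higher in members. Of 22 measured, 11 were called higher and 0 lower, beside 5.25% and 1.37% of all genes. Among the 11 were Top2a (1.96, 1.06 to 3.48), Birc5 (2.25, 1.31 to 3.99) and Hmgb2 (1.52, 1.27 to 1.91). The others were Nusap1 (2.5), Rrm2 (2.48), Ccnb2 (2.33), Stmn1 (2.12), Rrm1 (1.25), Tyms (1.06), Cenpa (0.91) and Mcm5 (0.66). Of the 686 members, 26 (3.79%) had at least 3 UMIs of 12 cell cycle genes, against 0.918% of comparison cells, and in thinned cells the shares were 2.78% and 0.371%. Without these cells, which were chosen on some of the same genes, 1 of the list was called higher, Top2a gave 0.60 and Birc5 0.31, and Stmn1 and Mcm5 were at -0.04 and -0.34. Hmgb2 then had a ratio of 0.90 and was still called. The S100, annexin and galectin list had 17 genes higher without cycling cells.

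The 12 genes with the largest ratios among those called higher were Nebl, Lgals3, 2810417H13Rik, Hist1h2ap, Tktl1, Hist1h2ae, S100a6, Lmna, Nusap1, Rrm2, Klrg1 and Cdca3. Nebl, a relative of the muscle protein nebulin that binds actin, was at 29.5 to 84.8 CPM (median 67.7) in members and 4.47 to 10.1 CPM (median 6.12) in comparison cells, a ratio of 3.16 (2.56 to 3.85), and its groups did not overlap. Tktl1, a transketolase-like gene, was at 29.5 to 62.1 CPM (median 43.6) against 3.60 to 9.49 CPM (median 5.70), a ratio of 2.82 (2.15 to 3.81). Hist1h2ap, Hist1h2ae, Nusap1, Rrm2, Cdca3 and 2810417H13Rik gave 0.30 to 1.58 without cycling cells and were then not called. The 12 genes with the lowest ratios among those called lower were 2610204G07Rik, Gsta4, Atp1b1, Gpr83, Igfbp4, Slc22a2, Gata1, Bcl9, Bcl2, Bcl2l11, Ly6k and Chchd10. Of these only Gpr83, Igfbp4, Bcl2 and Chchd10 had more than 8 UMIs in members, and Chchd10, a mitochondrial protein gene, was at 22.0 to 41.4 CPM (median 36.3) against 94.7 to 123 CPM (median 118), a ratio of -1.51 (-2.32 to -1.27).

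The other lists had few calls, to be read beside the 5.25% of all genes called higher and 1.37% called lower, and nothing is read from 1 or 2 calls in a list. Glycolysis genes had 0 of 14 called, with Ldha at 0.45 and Pkm at 0.41. Among 26 genes of NF-kB and of TNF receptors, 1 was higher, Tnfrsf25 (DR3, 0.62), and none lower. Interferon response genes had 2 of 21 higher, Oas1a (0.86) and Ifi27l2a (0.72), and 0 lower. The AP-1, BACH and small Maf genes had Bach2 alone called among 11. Immediate early and stress genes had 2 of 24 higher, Zfp36 (0.77) and Klf6, lipid and lysosomal genes 1 of 15 higher, Asah1 (0.91), and 1 lower, Cst7 (-0.85), and apoptosis regulators 3 of 16 higher, Birc5, Pmaip1 (1.28) and Bak1 (0.88), and 2 lower, Bcl2 and Bcl2l11 (-1.57, from 8 UMIs).

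Among cells without a Ccl5 UMI, S100a6, Lgals1, Crip1 and Rora were higher in each group with a larger marker sum, and Bcl2 lower. The groups hold cells with and without S100a4, and cells without it are not members: at a sum of 3, 152 of 283 cells were members. From a sum of 0 through 1, 2, 3, 4 and 5 to 6 or more, S100a6 stood at 101, 175, 379, 440.2, 745, 802 and 1613 CPM. Crip1 went from 1004.5 CPM at a sum of 0 to 1901 at 3 and 4835 at 6 or more. Lgals3 was at 6.69, 20.9 and 197 CPM at the same sums. Bcl2 went the other way, from 447 to 222 and 99.0 CPM, and so did Izumo1r, from 1211 to 1047.5 and 526. Bach2 was at 30.7, 30.8 and 26.2 CPM at sums of 0, 1 and 2 and at 14.9, 14.9, 14.0 and 13.1 CPM from 3 on. Cd83 was at 99.8 CPM at a sum of 0, 126 at 2 and 56.9 at 6 or more, and Areg, between 5.97 and 16.0 CPM, had no order. Ikzf2 stayed between 931 and 1199 CPM. The groups held 5275, 1836, 585, 283, 165, 111 and 352 cells. Cells with a sum of 6 or more were deeper, with a median of 2441.5 UMIs against 2053 at a sum of 0, and 8.24% of them were cycling by the measure above. Among members, 48.1% had a sum of 6 or more.

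**Figure D3:**
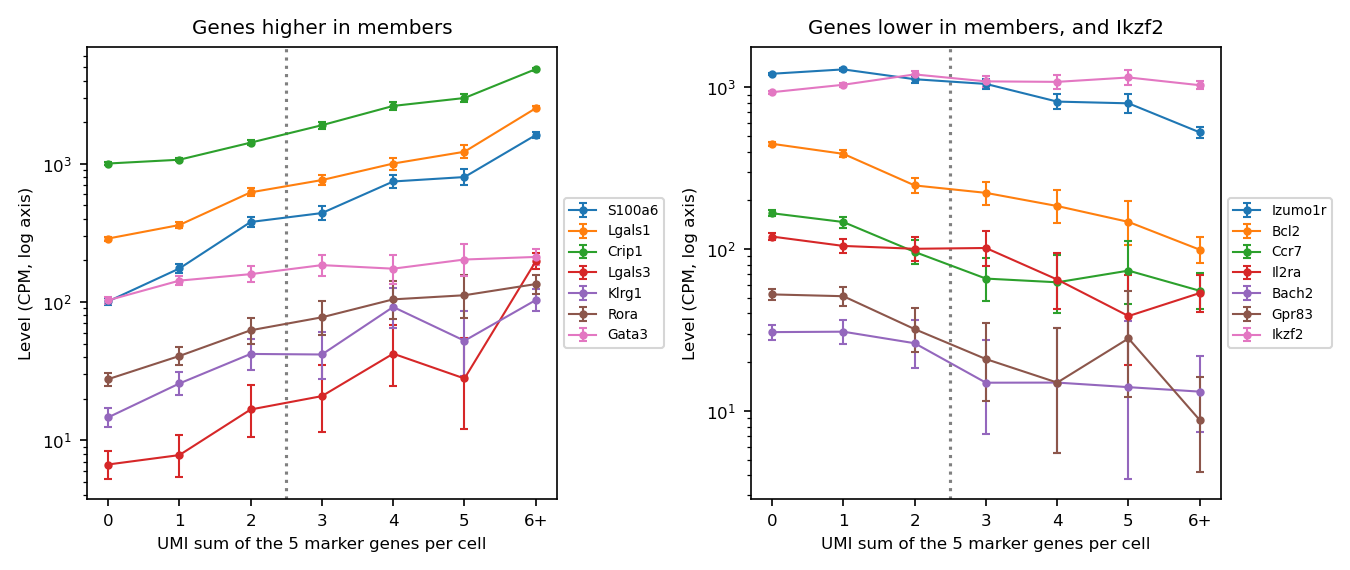
Level in CPM (log axis) of genes outside the rule against the UMI sum of the 5 marker genes per cell, in cells without a Ccl5 UMI, with 95% Poisson intervals that cover counting error. The dotted line marks a sum of 3, the least a member needs, and groups to its right also hold cells without S100a4, which are not members. S100a6 went from 101 to 1613 CPM and Bcl2 from 447 to 99.0 CPM between the ends, and Ikzf2 lay between 931 and 1199 CPM.

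Members were next set against 3 other sets of cells, within each barcode set and without the genes that define either side. Ccl5 cells (1555 cells with a Ccl5 UMI) carried a chemokine of effector and memory T cells. They had no limit on S100a4 or the marker sum, so cells kept out of the members only by a Ccl5 UMI count among them. TCR-stimulated cells (795 cells with at least 3 UMIs over Il1r2, Tnfrsf9, Cd83, Bcl2a1d and Penk, and no S100a4 or Ccl5) were chosen on genes of recent antigen receptor signals. Resting cells (1159 cells with at least 3 UMIs over 5 genes that include Ccr7, Igfbp4, Satb1 and Ly6c1, and no S100a4 or Ccl5) were chosen on genes of recirculating T cells. The TCR-stimulated and resting cells exclude S100a4 by rule, so genes that go with S100a4 in a cell are lower there in part through the choice. Genes that go with the T cell receptor or resting genes used to choose these cells are likewise higher there in part through the choice. Members need S100a4 and no Ccl5, while Ccl5 cells need a Ccl5 UMI. Genes that go with S100a4 or Ccl5 therefore differ between them in part through the choice. Leaving out the defining genes does not remove this.

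Against Ccl5 cells, 231 genes (3.12% of 7393) were called higher and 92 (1.24%) lower in members. Against the median gene of this comparison the counts were 151 (2.04%) and 132 (1.79%). The S100, annexin and galectin list had 17 of 25 higher and 0 lower, with S100a6 at 1.61 (1.11 to 2.38) and Lgals3 at 1.74 (0.89 to 2.03). Members were chosen on S100a4, so this count is a description and not a test. Of 22 cell cycle genes, only 1 was called higher and 0 lower. Top2a, at 1.37 (-0.39 to 3.13), and Birc5, at 1.18 (-0.74 to 3.67), were not called. Klf2 was at 1093 CPM in members and 419 in Ccl5 cells, a ratio of 1.38 (0.87 to 1.78). Nebl (2.91, 1.66 to 3.76), Tktl1 (2.37, 1.0 to 3.51), Klrg1 (1.19, 0.42 to 1.69), Itgae (1.14, 0.55 to 1.65) and Itgb7 (1.08, 0.63 to 1.23) were also higher, and Izumo1r (-0.96, -1.28 to -0.58), Cd200 (-0.93, -1.30 to -0.31) and Rgs1 (-0.84, -1.74 to -0.67) lower. Cxcr6, at 0.74 (-0.06 to 1.32), was not called in this comparison. Neither were Bach2, at -0.58 (-2.27 to -0.06), and Foxp1, at -0.48 (-0.84 to 0.06).

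Against TCR-stimulated cells, 447 genes (6.05% of 7388) were higher and 292 (3.95%) lower, or 397 (5.37%) and 338 (4.57%) against the median gene. Klf2 was at 1093 CPM in members against 149.7 in these cells, a ratio of 3.02 (2.09 to 3.44). S1pr4 (2.05, 1.53 to 2.61), Il7r (1.12, 0.90 to 1.67), Selplg (1.55, 1.18 to 1.77) and Tsc22d3 (2.03, 1.36 to 2.11) were higher with it. Of 16 T cell receptor response genes outside the choice, 9 were lower and 0 higher, among them Egr2 (-2.83, -5.34 to -0.56), and Lag3 (-2.34, -3.07 to -1.38), Rgs16 (-2.25, -3.89 to -0.88) and Cd200 (-2.04, -2.31 to -1.69) were lower too. The TCR-stimulated cells were chosen on genes of the same response, so this count is a description and not a test. Gata3 (0.35, 0.03 to 0.70), Maf (0.21, -0.16 to 0.97), Bach2 (-0.98, -2.54 to 0.80) and Foxp1 (-0.57, -0.82 to 0.01) were not called.

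Against resting cells, 812 genes (11% of 7388) were higher and 115 (1.56%) lower. The median gene was 0.27 higher in this comparison, and against it the counts were 350 (4.74%) and 320 (4.33%). Klrg1 was at 98.7 CPM in members and 3.08 in resting cells, a ratio of 4.93 (2.92 to 5.86). Maf (3.31, 2.11 to 4.29), Id2 (3.24, 2.95 to 4.89), Rora (3.09, 2.78 to 3.93), Gata3 (1.76, 1.48 to 2.19), Nrp1 (1.87, 1.29 to 2.65) and Ikzf2 (1.24, 0.97 to 1.46) were higher, and Bcl2 (-2.02, -2.17 to -1.83), Dapl1 (-4.50, -6.40 to -1.10), Foxp1 (-1.22, -1.39 to -1.0) and Bach2 (-1.64, -4.08 to -0.70) lower. Klf2, at 0.56 (0.03 to 0.87), was higher in 6 of 6 sets and not called. The comparisons share the members, so their overlap is not read as a result.

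**Figure D4:**
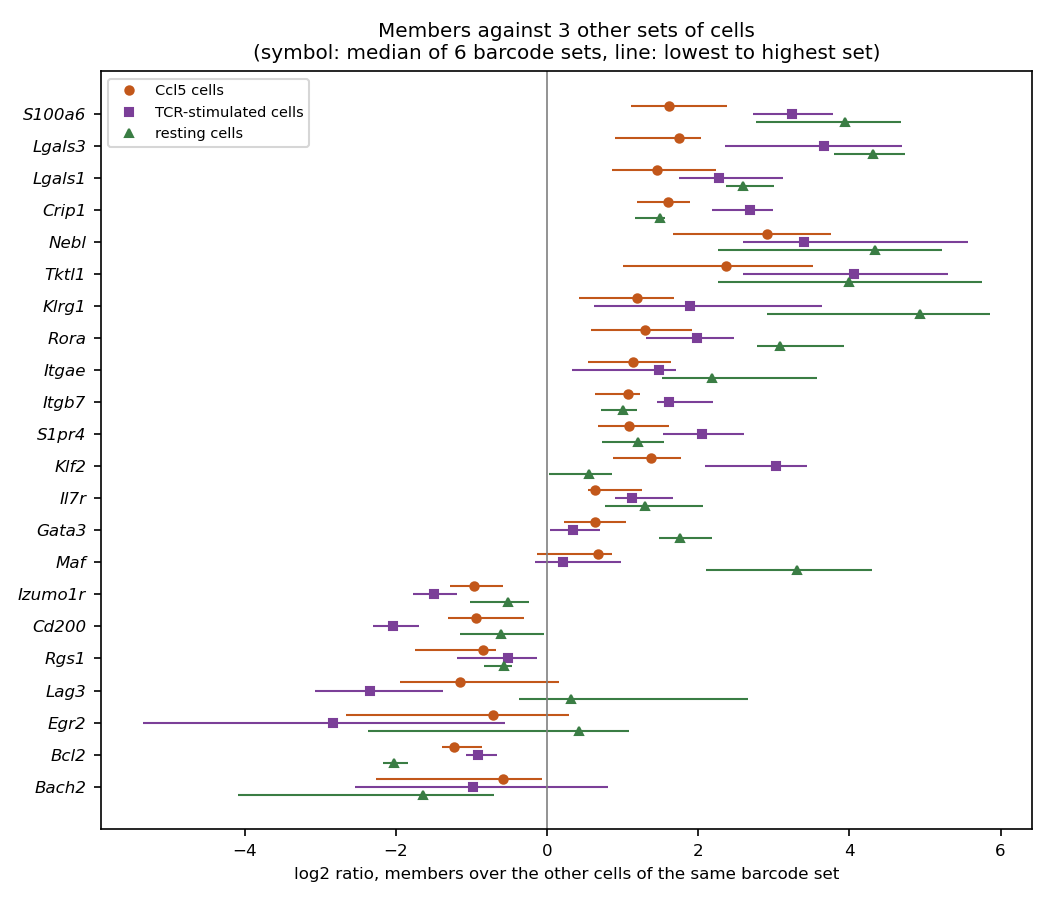
log2 ratio of members over Ccl5 cells (circles), TCR-stimulated cells (squares) and resting cells (triangles) for 22 genes. Symbols are the median of 6 barcode sets and lines run from the lowest to the highest set. Klf2 lay at 1.38, 3.02 and 0.56 in the 3 comparisons, and Bcl2 lay below 0 in each.

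Levels were also compared within members, split by the marker genes they carried. The 210 members with a Ccr2 UMI were set against the 476 without one, over 2364 genes with at least 100 UMIs in members, and 27 (1.14%) were higher and 9 (0.381%) lower by the same rule. Each marker gene counts towards the sum of the rule, so members with it differ from the others in the rest of the sum by the choice. Ccr2 was seen in 10.5% of members with a sum of 3 and in 46.7% with 6 or more. For genes such as S100a6 and Lgals3, the split by Ccr2 therefore cannot be told apart from the marker sum. Cxcr6 was at 119 CPM (92.1 to 150.4) against 42.9 (32.2 to 55.9), Lgals3 at 237 against 88.1 CPM, Id2 at 447 against 203 CPM, Klrg1 at 154 against 73.8 CPM and S100a6 at 1947 against 1001 CPM. Lower with Ccr2 were Fabp5, a fatty acid binding protein gene (31.4 against 86.5 CPM), Tbc1d4 (22.7 against 69.8 CPM), Cd200 (41.9 against 76.2 CPM), Cd83 (43.6 against 69.8 CPM) and Izumo1r (405 against 666 CPM). Median depth was 2214.5 UMIs with and 2130.5 without Ccr2, and 5.24% and 3.15% of the cells were cycling.

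In the 117 members with Il1rl1, 15 genes (0.635%) were higher and 5 (0.212%) lower than in the 569 without it. The higher genes with the largest log2 ratios were Hnrnpul2 (1.20), Tceb3 (1.13) and Cxcr6 (108 against 57.9 CPM). Also higher was the NF-kB subunit gene Rela (92.3 against 54.6 CPM). So was Bcl10, an adaptor of antigen receptor signals to NF-kB (98.6 against 63.2 CPM). With Il1rl1, Rela and Bcl10 rested on 29 and 31 UMIs, and the intervals of both with and without it overlapped. A link of Il1rl1 to NF-kB was not tested. Id3, an inhibitor of E proteins, was lower (63.6 against 153 CPM). Gata3 gave a ratio of 0.63 and was not called.

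The 174 members with Gna15 had 27 genes (1.14%) higher and 9 (0.381%) lower than the other 512. Birc5 was at 176 CPM (142 to 217) against 38.7 (28.8 to 50.9), Top2a at 153 against 31.9 CPM and Hist1h2ap at 1658 against 318 CPM, and 7.47% of members with Gna15 against 2.54% of the others were cycling. Tnfrsf9 (4-1BB) was lower, 34.9 against 114 CPM. Between the 515 members with Itgb1 and the 171 without it, 10 genes (0.423%) were higher, among them Klf3 (187 against 112 CPM), Stat3 (78.5 against 38.1 CPM) and Zyx (85.6 against 52.4 CPM), and 8 (0.338%) lower, among them Cxcr6 (59.4 against 90.6 CPM) and Odc1 (63.0 against 114 CPM). Without Itgb1, Stat3, Zyx and Cxcr6 rested on 16, 22 and 38 UMIs, and the intervals of Zyx and Cxcr6 with and without it overlapped. These splits rest on 13 to 112 cells per set on the side with the UMI.

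**Figure D5:**
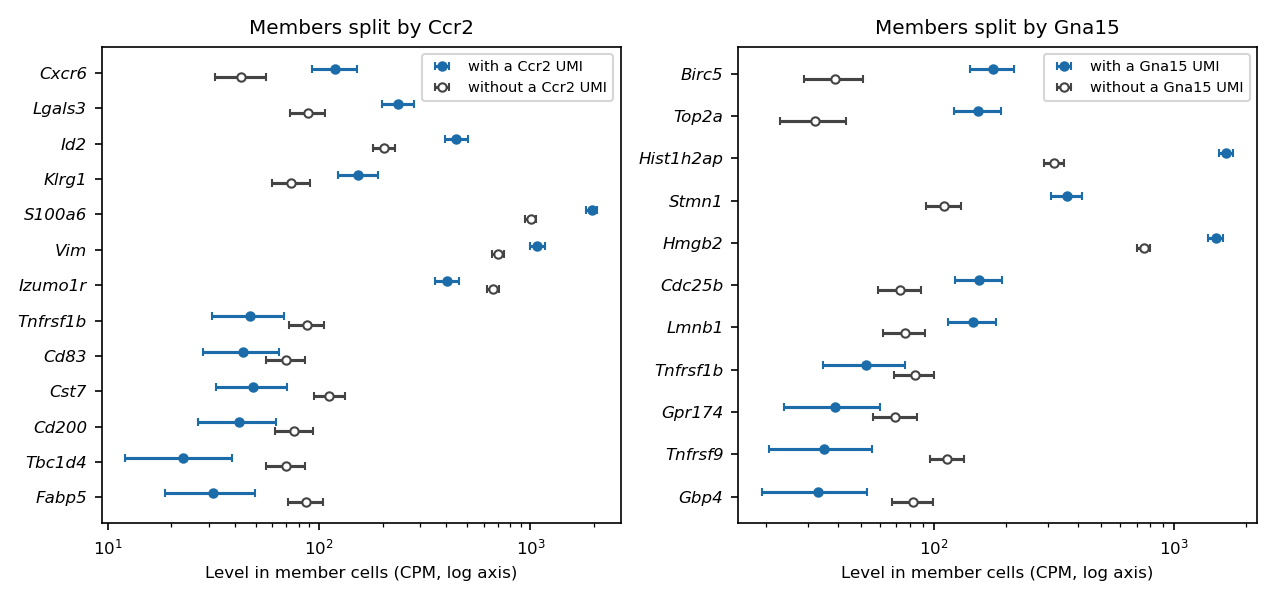
Levels in CPM (log axis) in members with a UMI of Ccr2 (left) or Gna15 (right), filled circles, and in members without it, open circles, with 95% Poisson intervals that cover counting error. Cxcr6 and Lgals3 were higher with Ccr2, and Birc5, Top2a and Hist1h2ap higher with Gna15.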

How the data were processed

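The series held 6 single-cell libraries of sorted splenic Treg cells, made with the 10x Chromium 3′ version 2 chemistry per the labels' protocols. The submitters' processing notes name Cell Ranger, FastQC, HISAT2, Seurat and cutadapt and the build mm10, with no role or version. The authors deposited a table of whole UMI counts for 14098 genes and 10685 cells, and a table of natural log values for 10464 of these cells, which equalled ln(1 + 10000 × count / cell total) recomputed from the counts. Only its cell names were used: 672 members were in it and 14 were not. The 10685 columns of cells were not tied to samples, since their barcodes end in 1 of 6 numbers that no label explains.

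The main values were computed from counts. UMIs of members and of comparison cells were summed within each of the 6 barcode sets, scaled to CPM, and compared as log2 ratios with 0.5 UMIs added, for genes with at least 200 UMIs over kept cells. Pooled CPM carry exact Poisson intervals and shares exact Clopper-Pearson intervals, at 95%. For shares of cells with a UMI, every cell was thinned to 1000 UMIs (seed 1), which left out 3 of 686 members and 300 of 9476 comparison cells. B cells (at least 5 UMIs over 4 genes that include Cd79a, Cd79b and Ms4a1) served as a guide to free RNA. Doublets of B and Treg cells were not removed from them, and the source of their Treg gene UMIs was not tested. No doublet caller was run, and an alternative left out cells with Cd8a or Hbb-bs UMIs and the top 2% by UMIs. The summing and calling steps were tested on simulated counts. Members, the 18 gene lists, the 9 marker lists and the tests were chosen with earlier results of these data known. Named genes were the 12 called genes with the largest ratio in each direction, Bach2, Foxp3, Ikzf2, Gata3 and Areg, and in each list every called gene and the 4 with the largest absolute ratio. Other genes named as not called, and those named in the comparisons with other cells and among members, were chosen after their values were seen. The alternative without cycling cells and the one with UMIs added in proportion were chosen after seeing the data. Some genes used to choose cells or held in the lists are not reported here. Promoters came from a RefSeq table (GRCm38.p6) and gene positions from GENCODE M21. The analysis used Python 3.11.15, numpy 2.4.6, scipy 1.17.1, pandas 2.3.3 and matplotlib 3.10.9.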

Additional observations from a re-analysis of the deposited data

Results flagged for a closer look

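The share of members and the log2 ratios of 128 named genes over comparison cells, 129 values in all, were searched for a barcode set that stood apart from the other 5. Chance alone marks about 1 value in 20 in such a search. In 6 genes 1 set stood apart, which is no more than that rate, so nothing is read from these sets. Ahnak was at 1.89 in set 2, Runx3 at 1.75 in set 5 and Il18r1 at 1.78 in set 3, each above its other sets. Set 3 also stood apart for Tyms, a cell cycle gene, at 3.07, and for Dapl1, a gene of resting T cells, at 0.0424, and had the lowest Bach2 ratio, -3.27, with 0 Bach2 UMIs in its 79 members.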

How the results depend on the processing

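Members were 5.29% of cells when chosen on thinned counts, 8.77% with a marker sum of 2 or more and 5.25% with 4 or more, and 6.33 to 7.24% with 1 set left out. The 388 genes called higher became 238 with totals without ribosomal, mitochondrial and rule genes, 220 against the median gene, 150 with at least 1000 UMIs and 3466 with no filter, where 0.5 UMIs weigh more in the smaller member totals. The 101 called lower became 182, 193 and 45 under the first 3 of these, 63 with cells thinned to 1000 UMIs, and 160 with UMIs added in proportion to the totals, where 299 were higher. With cells thinned, 196 of the 388 and 36 of the 101 were called again, and without cycling cells 268 and 72. With 1 set left out, 415 to 489 were higher and 111 to 135 lower. Against Ccl5 cells those ranges were 249 to 315 and 118 to 143 (143 without set 6, where 92 were lower with 6 sets), against TCR-stimulated cells 501 to 536 and 320 to 372, and against resting cells 872 to 979 and 133 to 152. The rise with 5 sets follows from a rule that asks for the same sign in fewer sets.

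Without cycling cells the Stmn1 log2 ratio was -0.0405 and the Mcm5 log2 ratio -0.34, and Mcm5 was at -0.25 without Cd8a or Hbb-bs cells and the top 2%, and the Bcl9 log2 ratio was 0.0241 with members chosen on thinned counts. The cause was not tested. Of 2944 values of named genes under the alternatives, 2641 kept their direction and side of the limits, 238 lost the call, 61 gained one and 4 reversed. No paired analysis was possible because the columns carry no replicate number, so cKO and WT samples could not be matched. Members and comparison cells were compared within each barcode set throughout. Depth limits low genes most: Foxp3 and Bach2 each rest on 27 UMIs in members.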

Other observations

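A few genes below the minimum of 200 UMIs stood out in members and are named after their values were seen. Il9r, the receptor of interleukin-9, was at 32.2 CPM (24.5 to 41.5) in members and 4.53 CPM (3.68 to 5.51) in comparison cells, from 59 UMIs in 55 members. Tmem176a, the neighbour of Tmem176b, was at 28.9 against 4.62 CPM. Gzmb, the granzyme B gene, was at 22.9 against 5.84 CPM, and its 42 UMIs lay in 21 members. In the follicular list Cxcr5, the receptor for B cell follicles, had 6 UMIs in members and Sostdc1 4, at 3.27 against 13.2 CPM and 2.18 against 10.9 CPM.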
